A study of Homo sapiens with 18 samples.

Results

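The 10 genes described here encode growth factor receptor tyrosine kinases: the platelet-derived growth factor receptors PDGFRA and PDGFRB, the fibroblast growth factor receptors FGFR1, FGFR2 and FGFR3, the receptors ERBB2, ERBB3 and ERBB4, the insulin-like growth factor receptor IGF1R and the neurotrophin receptor NTRK3. They were taken by symbol from a table of read counts for 25369 genes, and all 10 were found in it. The libraries came from D425 and D458 cells, established lines of Group 3 medulloblastoma, a childhood tumour of the cerebellum, grown in DMEM with fetal bovine serum. Short hairpin RNAs against EYA2, a transcriptional coactivator and tyrosine phosphatase that partners homeobox proteins of the sine oculis family, were set against a non-targeting hairpin, to ask which RNAs change when EYA2 is lowered. The 6 groups, with 3 biological replicates each, were D425 with EYA2 hairpin 6, D425 with EYA2 hairpin 8, D425 with the non-targeting control hairpin, D458 with EYA2 hairpin 7, D458 with EYA2 hairpin 8, and D458 with the non-targeting control hairpin. All 18 samples, controls included, carried a zsGreen hairpin vector, had 48 h in puromycin at 1 µg/mL, were sorted for the brightest 10% by zsGreen and recovered for 24 h before RNA was taken. Each sample is therefore a sorted pool of transduced cells of a single line.

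Receptor tyrosine kinases are membrane proteins whose extracellular part binds a growth factor and whose intracellular part phosphorylates tyrosines. Ligand binding pairs receptor chains, and the phosphorylated tails recruit adaptors that feed the RAS-MAPK and PI3K-AKT cascades and, from some receptors, phospholipase C gamma and STAT proteins. In the developing cerebellum, FGF, IGF, ERBB and neurotrophin signals act on granule neuron progenitors and on their neurons and glia, while PDGFRA is best known from oligodendrocyte precursors and PDGFRB from pericytes and fibroblasts.

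The start regions of PDGFRB, FGFR2, FGFR3 and IGF1R are shown because these genes carry the changes described below: PDGFRB in D458, FGFR2 and FGFR3 in D425, and IGF1R in opposite directions in the lines. Each sequence runs 5′ to 3′ over 300 bases around an annotated start in RefSeq (GRCh38.p14), most of them before it: PDGFRB at chr5:150155796-150156095 on the minus strand, FGFR2 at chr10:121598395-121598694 on the minus strand, FGFR3 at chr4:1793043-1793342 on the plus strand and IGF1R at chr15:98648289-98648588 on the plus strand. Capitals mark matches on either strand to the GC box GGGCGG, bound by SP-family factors, and to the CCAAT box CCAAT, bound by NF-Y.
PDGFRB: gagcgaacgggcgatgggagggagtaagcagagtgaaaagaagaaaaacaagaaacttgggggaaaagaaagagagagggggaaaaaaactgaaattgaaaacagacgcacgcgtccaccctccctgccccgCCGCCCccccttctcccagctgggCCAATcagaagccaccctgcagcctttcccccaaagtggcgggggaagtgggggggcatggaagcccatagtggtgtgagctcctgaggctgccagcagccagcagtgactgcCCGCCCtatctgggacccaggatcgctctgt
FGFR2: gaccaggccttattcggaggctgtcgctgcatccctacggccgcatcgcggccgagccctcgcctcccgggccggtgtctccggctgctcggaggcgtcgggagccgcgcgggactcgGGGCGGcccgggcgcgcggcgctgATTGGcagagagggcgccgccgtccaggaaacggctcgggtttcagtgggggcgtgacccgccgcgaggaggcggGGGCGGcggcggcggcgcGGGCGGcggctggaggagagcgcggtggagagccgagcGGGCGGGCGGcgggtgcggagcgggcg
FGFR3: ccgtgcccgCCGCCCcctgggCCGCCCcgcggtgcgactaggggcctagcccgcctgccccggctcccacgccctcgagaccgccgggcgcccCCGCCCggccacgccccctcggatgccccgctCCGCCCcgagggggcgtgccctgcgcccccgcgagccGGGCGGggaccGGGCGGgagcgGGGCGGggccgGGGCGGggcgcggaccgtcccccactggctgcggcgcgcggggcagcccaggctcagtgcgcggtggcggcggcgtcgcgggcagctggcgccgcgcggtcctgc
IGF1R: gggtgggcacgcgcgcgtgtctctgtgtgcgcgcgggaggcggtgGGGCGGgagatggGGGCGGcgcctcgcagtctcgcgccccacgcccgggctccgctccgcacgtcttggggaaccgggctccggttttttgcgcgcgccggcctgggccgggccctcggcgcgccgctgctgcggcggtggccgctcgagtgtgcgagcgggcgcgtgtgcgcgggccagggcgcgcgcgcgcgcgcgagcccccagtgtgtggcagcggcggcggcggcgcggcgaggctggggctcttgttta
The FGFR3 window held 8 GC boxes and no CCAAT box, and the FGFR2 window, 1 of 5 listed for that gene, held 5 GC boxes and 1 CCAAT box. PDGFRB held 2 GC boxes and 1 CCAAT box, and IGF1R held 2 GC boxes and no CCAAT box. The G+C content was 86.3% in the FGFR3 window, 79.7% in IGF1R, 79.3% in FGFR2 and 59.3% in PDGFRB. Of 35116 windows of this length in the RefSeq table, 45.0% held a GC box and 34.6% a CCAAT box. The TATA box TATAAA (11.5% of all windows) and the MEF3 motif TCAGGTTTC (0.362% of all windows), a known site of those homeobox proteins, matched on neither strand in any of the 13 windows found for 8 of the 10 genes. That says only that these letters are not in these windows. FGFR1 and ERBB3 are named without a window.

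The libraries held 21260369 to 31552051 counts each. Levels are given as TMM-scaled CPM (counts scaled to library size and composition), the values of a group are listed for replicates 1, 2 and 3, a log2 change is fitted and carries its standard error, and each adjusted p is from the edgeR quasi-likelihood test with Benjamini-Hochberg correction over the 14850 genes tested, called under 0.05. EYA2 stood at 15.1, 10.7 and 9.72 CPM with hairpin 6 and 17.5, 12 and 12.7 CPM with hairpin 8 in D425, against 43.6, 24.6 and 15.5 CPM in D425 controls, so that the hairpin 8 and control ranges overlapped. In D458 it stood at 47.5, 51.9 and 45.1 CPM with hairpin 7 and 18.2, 23.5 and 19.3 CPM with hairpin 8, against 73.7, 67.5 and 69.8 CPM in controls, with no overlap. The smallest EYA2 change was with hairpin 7, at -0.55 ± 0.26, which did not pass (adjusted p = 0.137, and 0.00692 with the replicate number as a block), while the other 3 changes were -1.24, -0.98 and -1.79. The call for hairpin 8 in D425 was missed without hairpin 8 replicate 2, hairpin 8 replicate 3 or control replicate 1 (adjusted p = 0.0578, 0.0601 and 0.0884), and without that control the change was -0.51. The Group 3 markers summed to 2047 to 3043 CPM in every library, with 6 of 8 averaging at least 1 CPM in every group and OTX2 the most abundant of them. In these bulk samples, fewer cells that express a gene and less RNA of it per cell cannot be told apart.

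Of the 10 receptor genes, 8 passed the filter on low counts. ERBB4 and NTRK3 did not, and PDGFRA passed with at most 16 counts in any library. The remaining 7 genes were measured well above that level in every library. Per kilobase of exon, which allows levels of different genes to be compared, IGF1R ranked highest in all 6 groups, at 15.9 ± 0.61 CPM per kilobase in D458 controls and 11.1 ± 0.88 in D425 controls (SD, n = 3). In D458 controls the order then ran FGFR2 (7.79 ± 0.99), ERBB2 (1.79 ± 0.09), ERBB3 (1.63 ± 1.13), FGFR1 (1.41 ± 0.04), PDGFRB (0.733 ± 0.11) and FGFR3 (0.482 ± 0.013). IGF1R and FGFR2 stood clear of their neighbours there, while ERBB3, with a single high library, overlapped ERBB2 and FGFR1. In D425 controls it ran ERBB2 (7.52 ± 2.73), FGFR1 (3.86 ± 0.20), PDGFRB (3.48 ± 1.09), FGFR2 (2.82 ± 0.95), FGFR3 (2.56 ± 0.49) and ERBB3 (0.716 ± 0.04). The values from FGFR1 to FGFR3 in that order lay within the spread of their neighbours. FGFR2 held rank 2 in all 4 hairpin groups, and PDGFRB held rank 3 in both D458 hairpin groups, against rank 6 in D458 controls. FGFR2 overlapped ERBB2 in both D425 hairpin groups, and PDGFRB overlapped the gene ranked next below in both D458 hairpin groups. Those ranks are not resolved.

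**Figure D1:**
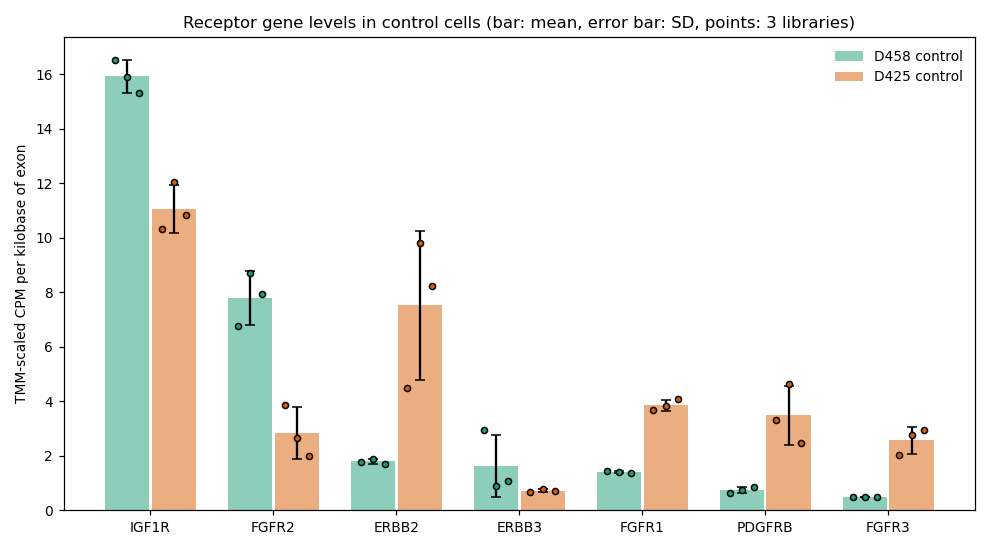
Levels of the 7 well-measured receptor genes in D458 control cells and D425 control cells, in TMM-scaled CPM per kilobase of exon. Bars are means, error bars SD and points the 3 libraries of a group. IGF1R was highest in both lines, FGFR2 stood at 7.79 in D458 and 2.82 in D425, and ERBB2 at 1.79 in D458 and 7.52 in D425.

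The control cells of the lines differed in most of these genes before any EYA2 hairpin was added. In D458 controls, 4 of the 7 well-measured receptor genes were lower than in D425 controls and 2 were higher, beside 31.4% of all tested genes called lower and 31.4% called higher, or 62.8% in all. FGFR3 averaged 2.15 ± 0.06 CPM in D458 controls and 11.4 ± 2.18 CPM in D425 controls (SD, n = 3 each), a log2 change of -2.41 ± 0.27 (adjusted p = 6.62e-07). The changes of PDGFRB (-2.24 ± 0.35, adjusted p = 3.66e-05), ERBB2 (-2.07 ± 0.35, adjusted p = 9.74e-05) and FGFR1 (-1.46 ± 0.19, adjusted p = 4.4e-06) had the same direction. FGFR2 was higher in D458, at 52.2 ± 6.61 CPM, than in D425, at 18.9 ± 6.37 CPM, a change of 1.47 ± 0.17 (adjusted p = 1.6e-06). IGF1R was also higher in D458, by 0.53 ± 0.10 (adjusted p = 0.000236). ERBB3 did not pass (1.18 ± 0.51, adjusted p = 0.0564), but did with the replicate block (1.00, adjusted p = 0.000606) and without D458 control replicate 2 or 3 (adjusted p = 0.0313 and 0.0452). Without D458 control replicate 1, the highest of its group, it was 0.43 (adjusted p = 0.47).

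With the hairpins, the count of receptor genes that changed was 1 of 8 with hairpin 6 and 4 of 8 with hairpin 8 in D425, and 4 of 8 with hairpin 7 and 3 of 8 with hairpin 8 in D458. The hairpin 7 count includes PDGFRA, with 8 counts over its group against 0 in controls. In the same comparisons, the share of all tested genes called was 14.1% with hairpin 6 (7.31% higher and 6.84% lower) and 21.7% with hairpin 8 (11.6% higher and 10.1% lower) in D425. In D458 it was 22.6% with hairpin 7 (11.5% higher and 11.1% lower) and 23.2% with hairpin 8 (12.1% higher and 11.1% lower). Scaled by library totals alone, 67.7% of the calls with hairpin 8 in D425 and 62.6% of those in D458 were higher, against 53.3% and 52.1% with TMM factors. The median log2 change over the 8 genes was 0.25 and 0.33 in D425 and 0.60 and 0.25 in D458, beside 0.01 over all tested genes in each comparison. With 8 genes tested, 1 call more or less moves their share by 12.5 percentage points. No D458 count was reached again with a single library left out: it was 3 without hairpin 7 replicate 1 and 2 without any other library for hairpin 7, and for hairpin 8 it was 2 without hairpin 8 replicate 1 or 3 and 1 without replicate 2 or any control. In D425 the hairpin 8 count was 2 without control replicate 3, and the hairpin 6 count 2 without hairpin 6 replicate 3 or control replicate 1. The hairpin 6 count moved with the replicate block, to 6 genes (3 higher and 3 lower), while calls over all genes moved to 4134, against 2101 without it. Both hairpins of D425 raised FGFR2, where 6.48% of all genes were called higher with both and 5.94% lower with both. In D458 both raised PDGFRB and FGFR1 and lowered IGF1R, where 9.28% of all genes were called higher with both and 8.64% lower with both. The hairpins of a line were each set against the same 3 control libraries.

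**Figure D2:**
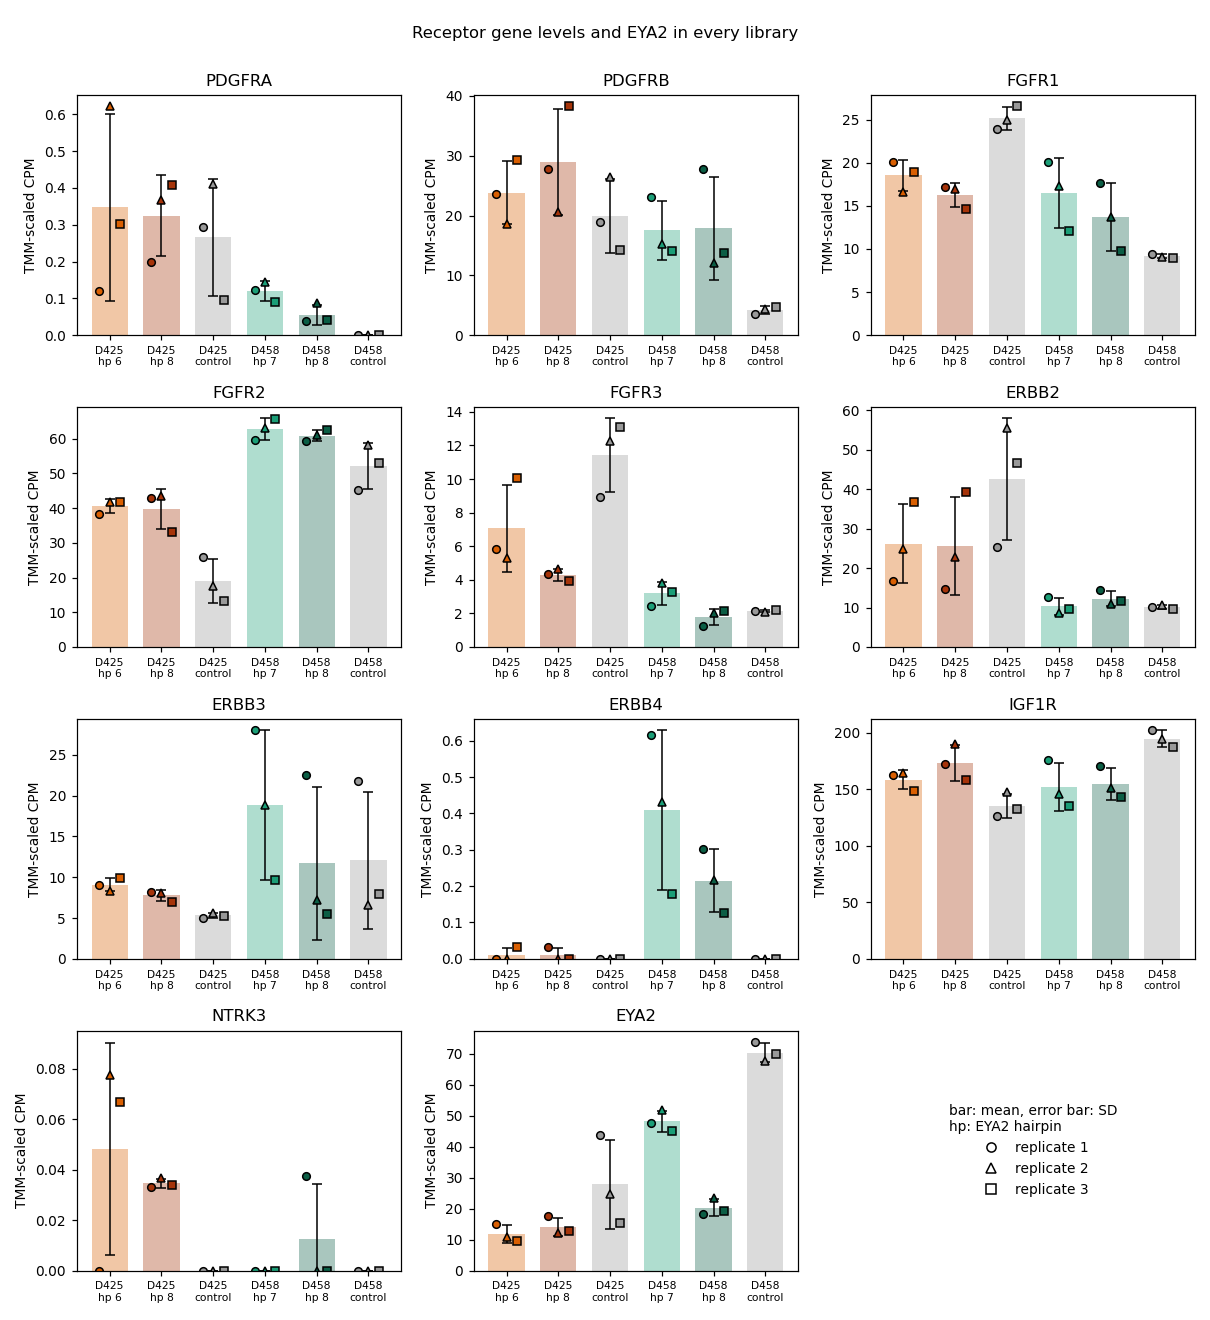
Levels of the 10 receptor genes and EYA2 in all 18 libraries, in TMM-scaled CPM on axes that start at 0, one panel per gene. Bars are means, error bars SD, and the marker shape gives the replicate number. PDGFRB stood at 3.51 to 4.76 CPM in D458 controls with all 6 D458 hairpin libraries above them, and FGFR2 in all 6 D425 hairpin libraries stood above the D425 controls.

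The PDGF receptors bind dimers of PDGF chains, PDGFRB chiefly those of the PDGF-B and PDGF-D chains and PDGFRA also those of PDGF-A and PDGF-C. PDGFRB showed the largest change of the 7 well-measured receptor genes in D458. Its levels there were 23.2, 15.3 and 14.1 CPM with hairpin 7 and 27.8, 12 and 13.7 CPM with hairpin 8, against 3.51, 4.30 and 4.76 CPM in controls. All 6 hairpin libraries lay above all 3 controls, and replicate 1 was the highest library of both hairpin groups. PDGFRB was thus 4.18-fold higher with hairpin 7 (log2 change 2.06 ± 0.35, adjusted p = 0.00118) and 4.26-fold higher with hairpin 8 (2.09 ± 0.35, adjusted p = 0.00104). Leaving out any single library kept both calls, with changes of 1.82 to 2.23 and of 1.63 to 2.34. In D425 the levels were 23.6, 18.6 and 29.3 CPM with hairpin 6 and 27.8, 20.7 and 38.3 CPM with hairpin 8, against 19, 26.5 and 14.2 CPM in controls. Those ranges overlapped, and neither change passed (0.26 ± 0.31, adjusted p = 0.64, and 0.54 ± 0.31, adjusted p = 0.237). Set against the control of the same replicate number, PDGFRB in D425 was higher in replicates 1 and 3 and lower in replicate 2 with both hairpins.

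Because PDGFRB is a defining gene of pericytes and fibroblasts, 9 other markers of those cells were read beside it. In D458 they summed to 78.2 to 118.7 CPM with hairpin 7 and 79.08 to 126.3 CPM with hairpin 8, against 56.69 to 78.62 CPM in controls, with 6, 6 and 5 of the 9 at or above 1 CPM on average. DCN averaged 12.2 CPM with hairpin 7 and 11 CPM with hairpin 8, against 1.02 CPM in controls. LUM stood at 8.42 and 10.6 CPM against 1.43 CPM, and ACTA2 at 10.1 and 11.1 CPM against 2.00 CPM. THY1 stood at or near 0 in all groups, and RGS5, a pericyte marker, at 5.21 and 6.48 CPM in the D458 hairpin groups against 9.44 CPM in controls. KCNJ8, the most abundant of the 9 in controls of both lines, stood at 53.9 and 52.1 CPM in D458 against 49.6 CPM. In D425 the sums were 59.84 to 91.18 CPM with hairpin 6 and 60.55 to 96.26 CPM with hairpin 8, against 41.57 to 45.27 CPM in controls, with 4, 5 and 4 at or above 1 CPM and COL1A1 at 28.9 and 25 CPM against 3.50 CPM. KCNJ8 was not higher there, at 28.9 and 28.2 CPM against 32.5 CPM, and DCN stood at 0.287 and 0.602 CPM against 0.560 CPM. The part of these markers in the PDGFRB result was not tested.

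PDGFRA RNA was scarce. In D425 it had 3, 16 and 9 counts with hairpin 6 and 6, 10 and 12 counts with hairpin 8, against 8, 11 and 3 counts in controls, overlapping ranges with no called change. In D458 it had 3, 3 and 2 counts with hairpin 7 and 1, 2 and 1 counts with hairpin 8, against 0 in every control. With 3 counts over the control group as the floor and the hairpin counts taken as they stand, the PDGFRA ratio to control was 2.64 with hairpin 7 (adjusted p = 0.0399). With hairpin 8 it was 1.22, and that change did not pass (adjusted p = 0.129). The hairpin 7 call was missed when any of its 6 libraries was left out, with adjusted p between 0.0506 and 0.0989: 0.0989, 0.0691 and 0.0506 without hairpin 7 replicates 1, 2 and 3, and 0.0827, 0.0825 and 0.0923 without control replicates 1, 2 and 3. In the control cells, PDGFRA had 0 counts in D458 and 22 counts in D425. It passed the filter through D425 libraries only, as no D458 library held more than 3 counts, so no test of that difference is given. The oligodendrocyte precursor markers OLIG1 and GPR17 stood at or near 0 in all groups, and OLIG2 averaged 15 to 29.6 CPM over the groups.

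The FGF receptors bind fibroblast growth factors together with heparan sulfate, and they gave the clearest contrast within a family. FGFR2 was called higher with both hairpins in D425 and FGFR1 with both in D458, while FGFR3 was called lower with hairpin 8 in D425. FGFR2 stood at 38.5, 41.7 and 41.7 CPM with hairpin 6 and 42.8, 43.6 and 33.2 CPM with hairpin 8 in D425, against 25.9, 17.6 and 13.3 CPM in controls. Every hairpin library was above every control, and control replicate 1 was the highest control. The change was 1.10 ± 0.17 with hairpin 6 (adjusted p = 0.000716) and 1.08 ± 0.17 with hairpin 8 (adjusted p = 0.00049), and both calls held without any single library. With replicate 2 of every group left out they missed the threshold (adjusted p = 0.0933 and 0.0625), as did the hairpin 6 call without replicate 3 (adjusted p = 0.0519). In D458, FGFR2 stood at 59.5, 63.2 and 65.7 CPM with hairpin 7 and 59.3, 61.0 and 62.5 CPM with hairpin 8, against 45.2, 58.4 and 53.1 CPM in controls. All 6 hairpin libraries were again above the controls, but by less, and neither change passed (0.27 ± 0.17, adjusted p = 0.257, and 0.22 ± 0.17, adjusted p = 0.351). Beside FGFR2, 8 neuronal markers summed to 127.3 to 146.1 CPM with hairpin 6 and 117.2 to 170.0 CPM with hairpin 8 in D425, against 45.89 to 97.2 CPM in controls, mostly from SYP and TUBB3, with ELAVL4 and STMN2 at or near 0 in that line. Their part in the FGFR2 result was not tested.

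FGFR1 moved in opposite directions in the lines. In D425 it stood at 20.1, 16.6 and 19 CPM with hairpin 6 and 17.2, 16.9 and 14.6 CPM with hairpin 8, against 23.9, 25 and 26.5 CPM in controls, with no overlap. It was called lower with hairpin 8 (-0.63 ± 0.18, adjusted p = 0.022), while the hairpin 6 value of -0.44 ± 0.18 did not pass (adjusted p = 0.124, and 0.0147 with the replicate block). The hairpin 8 call was missed without hairpin 8 replicate 3, control replicate 2 or control replicate 3 (adjusted p = 0.0771, 0.0539 and 0.0824) and with scaling by library totals (adjusted p = 0.0513). In D458, FGFR1 stood at 20.1, 17.3 and 12.1 CPM with hairpin 7 and 17.7, 13.7 and 9.77 CPM with hairpin 8, against 9.42, 9.09 and 8.97 CPM in controls. All hairpin libraries exceeded all controls, replicate 3 of hairpin 8 only just. The change was 0.85 ± 0.19 with hairpin 7 (adjusted p = 0.00574), a call kept without any single library though missed without replicate 2 of every group (adjusted p = 0.116). With hairpin 8 it was 0.58 ± 0.19 (adjusted p = 0.0359). That call was missed without hairpin 8 replicate 1 (0.37, adjusted p = 0.223) or replicate 2 (adjusted p = 0.0567), and without control replicate 1, 2 or 3 (adjusted p = 0.0729, 0.0802 and 0.0924). With the model restricted to the 9 libraries of D458 it was also missed (adjusted p = 0.0949), as with limma voom (adjusted p = 0.0733).

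FGFR3 stood at 5.82, 5.32 and 10.1 CPM with hairpin 6 and 4.32, 4.65 and 3.95 CPM with hairpin 8 in D425, against 8.96, 12.3 and 13.1 CPM in controls. The hairpin 8 libraries all lay below the controls, while replicate 3 of hairpin 6 lay within their range. With hairpin 8 FGFR3 was 2.66-fold lower (-1.41 ± 0.25, adjusted p = 0.000962), and no single library ended the call. The hairpin 6 value of -0.69 ± 0.24 did not pass (adjusted p = 0.0676). It passed with the replicate block (adjusted p = 0.0112), with DESeq2 (0.0449) and limma voom (0.0233), and without hairpin 6 replicate 3 (-1.04, adjusted p = 0.014) or control replicate 1 (-0.84, adjusted p = 0.0338), and its adjusted p reached 0.249 without other libraries. In D458, where FGFR3 was low, it stood at 2.47, 3.83 and 3.27 CPM with hairpin 7 and 1.24, 2.04 and 2.12 CPM with hairpin 8, against 2.13, 2.10 and 2.21 CPM in controls, and neither change passed (0.57, adjusted p = 0.135, and -0.26, adjusted p = 0.525). FGFR3 and FGFR2 moved in opposite directions with hairpin 8 in D425. The part of the GC boxes in their start regions shown above, 8 for FGFR3 and 5 for FGFR2, was not tested.

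The ERBB receptors bind ligands of the EGF and neuregulin families as pairs. ERBB2 has no known ligand of its own and serves as partner, and ERBB3 has little kinase activity and signals through its partner. No tested ERBB gene passed in a hairpin comparison in the fit of all 18 libraries without a block. ERBB2 stood at 16.8, 24.9 and 36.9 CPM with hairpin 6 and 14.8, 22.8 and 39.3 CPM with hairpin 8 in D425, against 25.5, 55.6 and 46.7 CPM in controls. The ranges overlapped, with replicate 1 the lowest library of all 3 groups, yet each hairpin library lay below the control of the same replicate number. The values were -0.70 ± 0.33 (adjusted p = 0.189) and -0.73 ± 0.33 (adjusted p = 0.131), and with the replicate block -0.72 (adjusted p = 0.00339) and -0.78 (adjusted p = 0.00143). The hairpin 8 value also passed without hairpin 8 replicate 3 (-1.18, adjusted p = 0.0252) or control replicate 1 (adjusted p = 0.0369), but shrank to -0.46 without hairpin 8 replicate 1 (adjusted p = 0.402). Without control replicate 2 the values were -0.46 with hairpin 6 and -0.49 with hairpin 8 (adjusted p = 0.496 and 0.382), and without hairpin 6 replicate 1 the hairpin 6 value was -0.46 (adjusted p = 0.486). In D458, ERBB2 stood at 12.8, 8.53 and 9.76 CPM with hairpin 7 and 14.4, 10.8 and 11.7 CPM with hairpin 8, against 10.1, 10.7 and 9.64 CPM in controls, with values of 0.04 ± 0.36 (adjusted p = 0.956) and 0.28 ± 0.35 (adjusted p = 0.592).

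ERBB3 stood at 9.06, 8.27 and 9.85 CPM with hairpin 6 and 8.22, 8.12 and 7.01 CPM with hairpin 8 in D425, against 5.01, 5.67 and 5.27 CPM in controls. All 6 hairpin libraries were above the controls. The values of 0.77 ± 0.51 and 0.55 ± 0.51 did not pass in the fit of all 18 libraries (adjusted p = 0.361 and 0.477), whose spread for this gene includes D458, but did in the 9 D425 libraries alone (adjusted p = 0.00818 and 0.0218), and the hairpin 6 value passed with the replicate block (adjusted p = 0.0125). In D458 ERBB3 varied most between replicates: it stood at 28, 18.9 and 9.63 CPM with hairpin 7 and 22.5, 7.22 and 5.44 CPM with hairpin 8, against 21.8, 6.55 and 7.93 CPM in controls. Replicate 1 was the highest library in every D458 group. Neither value passed (0.64 ± 0.50, adjusted p = 0.366, and -0.04 ± 0.50, adjusted p = 0.967), and the hairpin 7 value passed with the replicate block (0.72, adjusted p = 0.0113). Without single libraries it ran from 0.26 without hairpin 7 replicate 1 (adjusted p = 0.805) to 1.40 without control replicate 1 (adjusted p = 0.0692).

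ERBB4, a neuregulin receptor, was below the filter but was not evenly so. In D458 it had 15, 9 and 4 counts with hairpin 7 and 8, 5 and 3 counts with hairpin 8, against 0 in every control. At a floor of 3 counts over the control group, with the hairpin counts taken as they stand, the ratios to control were 9.26 and 4.88. All 6 hairpin libraries held counts and no control did. As ERBB4 was below the filter and held counts almost only in those hairpin libraries, no test of these differences is given. In D425 it had 1 count with hairpin 6 and 1 with hairpin 8, against 0 in controls. NTRK3, the receptor of neurotrophin 3, had 4 counts over the 3 libraries with hairpin 6 and 3 with hairpin 8 in D425, against 0 in controls. It had 0 counts with hairpin 7 and 1 with hairpin 8 in D458, against 0 in controls. No test of these counts is given either.

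IGF1R, which binds IGF1 and IGF2 and signals largely through IRS adaptors and PI3K, was the most abundant of the 10 and had the smallest called changes. In D425 it stood at 163, 164 and 149 CPM with hairpin 6 and 172, 190 and 158 CPM with hairpin 8, against 126, 147 and 133 CPM in controls. Each hairpin library was above each control. It was higher with hairpin 8 (0.36 ± 0.10, adjusted p = 0.0185), and the hairpin 6 value of 0.23 ± 0.10 did not pass (adjusted p = 0.148, and 0.0134 with the replicate block). The hairpin 8 call was missed without hairpin 8 replicate 2, control replicate 1 or control replicate 3 (adjusted p = 0.0699, 0.0579 and 0.0727).

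In D458, IGF1R went the other way, at 176, 146 and 135 CPM with hairpin 7 and 170, 151 and 143 CPM with hairpin 8, against 202, 195 and 187 CPM in controls. Each hairpin library was below each control. It fell to 78.1% of control with hairpin 7 (-0.36 ± 0.10, adjusted p = 0.0195) and 79.4% with hairpin 8 (-0.33 ± 0.10, adjusted p = 0.026). Both calls were near the threshold. The hairpin 7 call was missed without hairpin 7 replicate 2 or 3 (adjusted p = 0.0927 and 0.124) or without control replicate 1, 2 or 3 (adjusted p = 0.0868, 0.0821 and 0.0595). The hairpin 8 call was missed without hairpin 8 replicate 2 or 3 (adjusted p = 0.0982 and 0.132) or without control replicate 1, 2 or 3 (adjusted p = 0.108, 0.099 and 0.0726). It was also missed with scaling by library totals (0.0593), without the filter (0.052), at a minimum count of 30 (0.052) and in the 9 D458 libraries alone (0.0534).

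**Figure D3:**
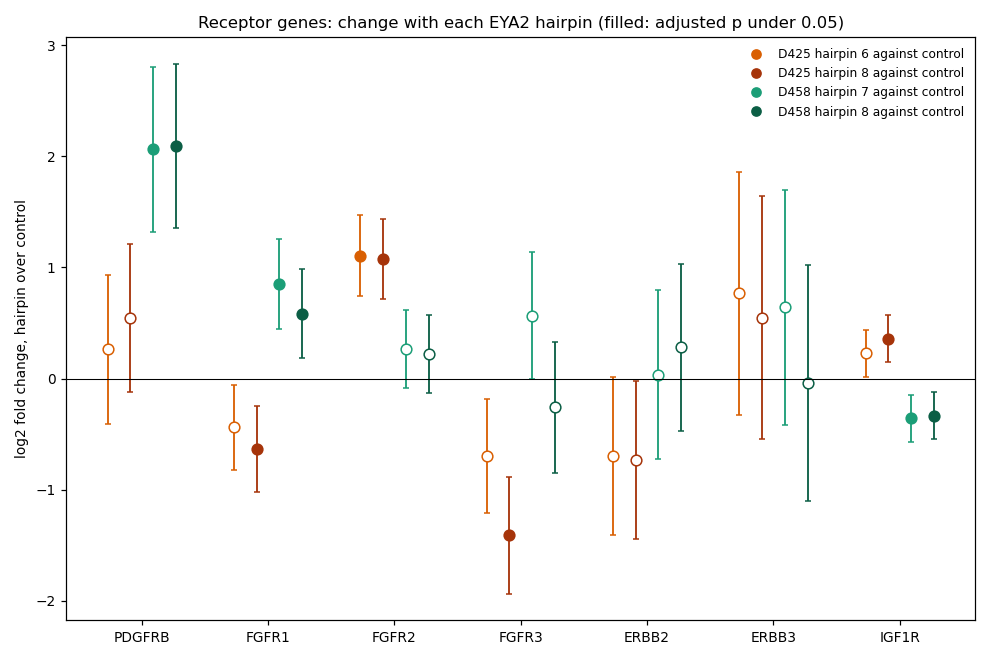
Fitted log2 changes of the 7 well-measured receptor genes with each hairpin over the control of its line, with 95% intervals. Filled circles have an adjusted p under 0.05. PDGFRB stood apart in D458 at 2.06 and 2.09, FGFR2 in D425 at 1.10 and 1.08, and FGFR1 and IGF1R had opposite signs in the lines.

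The hairpins of a line did not differ in any receptor gene at the threshold. The sets of 14850 tests were hairpin 8 against hairpin 6 in D425 and hairpin 8 against hairpin 7 in D458. Neither set held a call with edgeR (0% of genes) or limma voom, and DESeq2 called 6 and 4 genes, none of them a receptor. With edgeR, 519 and 274 genes had an unadjusted p under 0.05, fewer than that threshold would give if no gene differed. The tests without a block could thus miss differences, and the lack of calls is not read as likeness of the hairpins. FGFR3 was the 1 receptor gene with an unadjusted p under 0.05 in each set. It was lower with hairpin 8 by -0.72 in D425 (95% interval -1.24 to -0.19) and by -0.82 in D458 (-1.40 to -0.25). For PDGFRB in D458, hairpin 8 minus hairpin 7 was 0.03 with an interval of -0.65 to 0.71. EYA2 itself averaged 20.3 CPM with hairpin 8 and 48.1 CPM with hairpin 7 there (edgeR, unadjusted p = 0.000279). That EYA2 difference did not pass after adjustment over all genes but did with the replicate block (adjusted p = 0.011).

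Hairpin 8 was used in both lines, which allowed its change in D458 to be set against its change in D425 in a single test. That difference passed for 4 of 8 receptor genes, with 2 higher and 2 lower, beside 11.8% of all tested genes (6.19% higher and 5.65% lower). For EYA2 itself the change with hairpin 8 was -1.79 in D458 and -0.98 in D425, a difference of -0.81 ± 0.38 that did not pass (adjusted p = 0.177). The part of the unlike EYA2 changes in the receptor differences was not tested. PDGFRB rose more in D458 (difference 1.55 ± 0.47, adjusted p = 0.0416). FGFR1 differed by 1.21 ± 0.26 (adjusted p = 0.00815), FGFR2 by -0.85 ± 0.24 (adjusted p = 0.0302) and IGF1R by -0.69 ± 0.14 (adjusted p = 0.00585). The differences of FGFR1 and IGF1R passed without any single library. That of PDGFRB was missed without D425 hairpin 8 replicate 1 or 2 (adjusted p = 0.0855 and 0.0879), D425 control replicate 2 (0.111), D458 hairpin 8 replicate 1 (0.0977) or D458 control replicate 1, 2 or 3 (0.0918, 0.072 and 0.0611). That of FGFR2 was missed without D425 hairpin 8 replicate 1 or 2 (adjusted p = 0.0716 and 0.0642), D425 control replicate 2 or 3 (0.0763 and 0.0618), any D458 hairpin 8 library (0.0591, 0.0601 and 0.0581) or D458 control replicate 2 or 3 (0.0867 and 0.0692). For the other receptors the differences were 1.15 for FGFR3 (adjusted p = 0.0536, and 0.0182 with the replicate block), 1.01 for ERBB2 (0.189, and 0.00485 with the block) and -0.59 for ERBB3 (0.641). Without D425 control replicate 1 or D458 hairpin 8 replicate 1 FGFR3 passed (adjusted p = 0.0289 and 0.0248), and without D425 hairpin 8 replicate 3 ERBB2 passed (1.46, adjusted p = 0.0445), while the adjusted p reached 0.124 for FGFR3 and 0.375 for ERBB2 without other libraries. As levels, PDGFRB averaged 17.8 CPM with hairpin 8 and 4.19 CPM in controls in D458, beside 28.9 CPM with hairpin 8 and 19.9 CPM in controls in D425. FGFR1 averaged 13.7 CPM with hairpin 8 and 9.16 CPM in controls in D458, beside 16.3 CPM with hairpin 8 and 25.1 CPM in controls in D425.

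For the 4 receptor genes called in at least 2 hairpin comparisons, the 2 genes with the closest set of 4 log2 changes were looked up among 12738 genes averaging at least 1 CPM, as a description over 18 libraries. PDGFRB was closest to VAV3, a guanine nucleotide exchange factor, and CSDC2 (root mean square differences of 0.11 and 0.12 on the log2 scale). FGFR1 was closest to SMKR1 and ELF4 (0.08 and 0.08), and FGFR2 to GGACT and NAV1 (0.06 and 0.06). ZNF267 was among the 2 closest to IGF1R (0.03). VAV3 in D458 had changes of 2.02 and 2.09, against 2.06 and 2.09 for PDGFRB.

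The changes were also set against those of the 20 nearest tested genes on each chromosome, 10 on either side. Those neighbours had median log2 changes of 0.17 and 0.18 around PDGFRB in D458, where the gene itself had 2.06 and 2.09. Around FGFR2 in D425 the medians were 0.16 and 0.16, where the gene had 1.10 and 1.08. Around FGFR3 with hairpin 8 in D425 the median was -0.13, where the gene had -1.41, and around IGF1R it lay between -0.04 and 0.12 in the 4 comparisons.

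**Figure D4:**
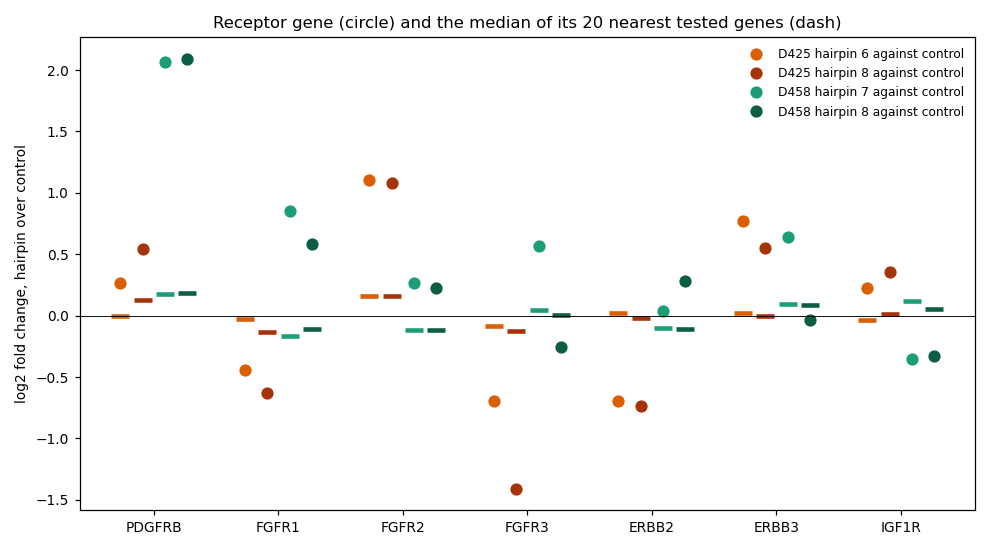
Log2 change of each of the 7 well-measured receptor genes (circle) and the median log2 change of its 20 nearest tested genes (dash) with each hairpin over its line's control. The medians lie close to 0, within -0.16 and 0.18, while PDGFRB in D458 is above 2 and FGFR3 with hairpin 8 in D425 is at -1.41.

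The other genes of these pathways were counted in 5 lists written from general knowledge. Over all tested genes, 14.1% were called with hairpin 6 and 21.7% with hairpin 8 in D425. In D458, 22.6% were called with hairpin 7 and 23.2% with hairpin 8. The share of all tested genes called lower was 6.84%, 10.1%, 11.1% and 11.1% in that order. Of 40 ligand genes, 15 were tested. The number called higher was 3 with hairpin 6 and 6 with hairpin 8 in D425, and 2 with hairpin 7 and 4 with hairpin 8 in D458, with 0 called lower in all 4 and medians of 0.69, 0.84, 0.64 and 0.70. Calls made up 20%, 40%, 13.3% and 26.7% of the tested ligands. With 15 genes and the shares called lower given above, the 0 lower calls are not read as a result. With the replicate block the counts were 7 for hairpin 6, 5 for hairpin 7 and 7 for hairpin 8 in D458, and without single libraries they ran from 1 to 3, 3 to 6, 1 to 3 and 2 to 3. PDGFC, which encodes a ligand chain of PDGFRA, was higher with hairpin 8 in both lines, at 40.8 ± 2.75 CPM against 23.2 ± 4.29 CPM in D425 and at 18.5 ± 6.50 CPM against 10.0 ± 0.53 CPM in D458 (0.81 ± 0.19, adjusted p = 0.00595, and 0.88 ± 0.20, adjusted p = 0.00549). It was also called higher with hairpin 6 in D425 (0.69, adjusted p = 0.0207) and hairpin 7 in D458 (0.82, adjusted p = 0.00862). Leaving out 1 library lost those calls for 4 and 1 of 6 libraries. HBEGF, a ligand of EGFR and ERBB4, was higher with both hairpins in D458, at 4.78 ± 2.38 and 4.63 ± 3.22 CPM against 1.14 ± 0.14 CPM (2.07 ± 0.43, adjusted p = 0.00426, and 2.03 ± 0.43, adjusted p = 0.00447). Genes are named here from those picked by a fixed rule (the up to 4 smallest adjusted p per list and comparison), and of these only ones with a call that held without any single library, a restriction chosen after their values were seen.

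Among 24 tested of 30 binding proteins and co-receptors, 8 were called higher and 1 lower with hairpin 6 and 9 higher and 1 lower with hairpin 8 in D425, and 3 and 4 higher with 0 lower with hairpins 7 and 8 in D458 (medians 0.81, 0.72, 0.80 and 0.70). Calls made up 37.5% and 41.7% of the list in D425. In D458 they made up 12.5% and 16.7%, below the shares over all tested genes. The block gave 16 and 17 calls in D425 and 9 and 7 in D458, and left-out libraries gave 4 to 13, 6 to 14, 1 to 4 and 2 to 5. CSPG4, a proteoglycan that binds PDGF-AA and FGF2 and is also on the list of oligodendrocyte precursor markers, stood at 11.6 ± 1.32 and 11.9 ± 1.06 CPM with the D425 hairpins against 3.64 ± 1.90 CPM in controls (1.68 ± 0.33, adjusted p = 0.00358, and 1.72 ± 0.33, adjusted p = 0.00211). SDC4, a heparan sulfate proteoglycan, was lower there (-0.84 and -0.72, adjusted p = 0.000701 and 0.0012). GPC2, a glypican, was higher in D458 (0.93 and 0.81, adjusted p = 0.00177 and 0.00397). Of 32 other receptor tyrosine kinases, 23 were tested, of which 4 were higher in each comparison and 2, 4, 2 and 1 lower (medians 0.12, 0.17, 0.33 and 0.37), with 10 calls under the block for hairpin 6 in D425 and 8 for hairpin 8 in D458. Left-out libraries gave 3 to 8, 4 to 9, 3 to 5 and 3 to 4 calls. As shares of the tested genes of this list, the calls with all libraries were 26.1%, 34.8%, 26.1% and 21.7%. MUSK, the agrin-dependent receptor of the muscle synapse, rose in D458 to 15.6 ± 7.75 and 15.4 ± 9.89 CPM against 1.72 ± 0.94 CPM (3.18 ± 0.48, adjusted p = 0.000504, and 3.16 ± 0.48, adjusted p = 0.000506). In D425 the WNT5A receptors ROR1 and ROR2 moved in opposite directions, ROR1 by 1.85 and 2.14 (adjusted p = 0.00712, a call lost in the 9 D425 libraries alone, and 0.00209) and ROR2 by -0.79 and -0.91 (adjusted p = 0.00386 and 0.00102).

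Of 45 adaptor and cascade genes, 43 were tested. In D425, 2 were higher and 5 lower with each hairpin, and in D458, 5 were higher and 4 lower with hairpin 7 and 4 of each with hairpin 8. Their medians lay at 0.00, 0.03, 0.02 and 0.05, the block gave 11, 14, 16 and 15 calls, and left-out libraries 6 to 10, 7 to 10, 4 to 9 and 5 to 10. Without a block, 16.3%, 16.3%, 20.9% and 18.6% of the list were called, near the shares over all tested genes. AKT1 fell to 118 ± 9.16 and 110 ± 4.17 CPM with the D425 hairpins, against 155 ± 9.22 CPM in controls (-0.39, adjusted p = 0.00252, and -0.49, adjusted p = 0.000363), and PLCG2, a phospholipase C gamma, also fell (-1.30 and -1.41, adjusted p = 0.000901 and 0.00033). In D458, STAT5B rose (0.55 and 0.64, adjusted p = 0.000391 and 0.000141). Of 26 feedback and target genes, 25 were tested, with 5 higher and 2 lower with each D425 hairpin, 3 higher and 2 lower with hairpin 7 and 1 higher and 2 lower with hairpin 8 in D458 (medians 0.12, 0.23, 0.17 and 0.15). As shares of this list, the calls were 28%, 28%, 20% and 12%. The block gave 11, 12, 11 and 9 calls, and in D458 DESeq2 gave 8 with hairpin 7 and 7 with hairpin 8. Left-out libraries gave 2 to 10, 2 to 8, 0 to 8 and 0 to 5, the count being 0 without replicate 1 of hairpin 7 and, for hairpin 8, without its replicate 1 or control replicate 2 or 3. DUSP5, an ERK phosphatase induced by ERK signalling, was higher in D425, at 30.8 ± 2.42 and 35.7 ± 8.24 CPM against 14.7 ± 5.86 CPM (1.07 ± 0.22, adjusted p = 0.00417, and 1.29 ± 0.22, adjusted p = 0.0008). PTPN1, of the same list, was lower in D425 (-0.38, adjusted p = 0.0046, and -0.43, adjusted p = 0.00156), and those calls also held without any single library. In D458 PTPN1 was called lower as well (-0.33, adjusted p = 0.00975, and -0.27, adjusted p = 0.0263). Leaving out 1 library lost those D458 calls for 1 and 5 of 6 libraries.

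**Figure D5:**
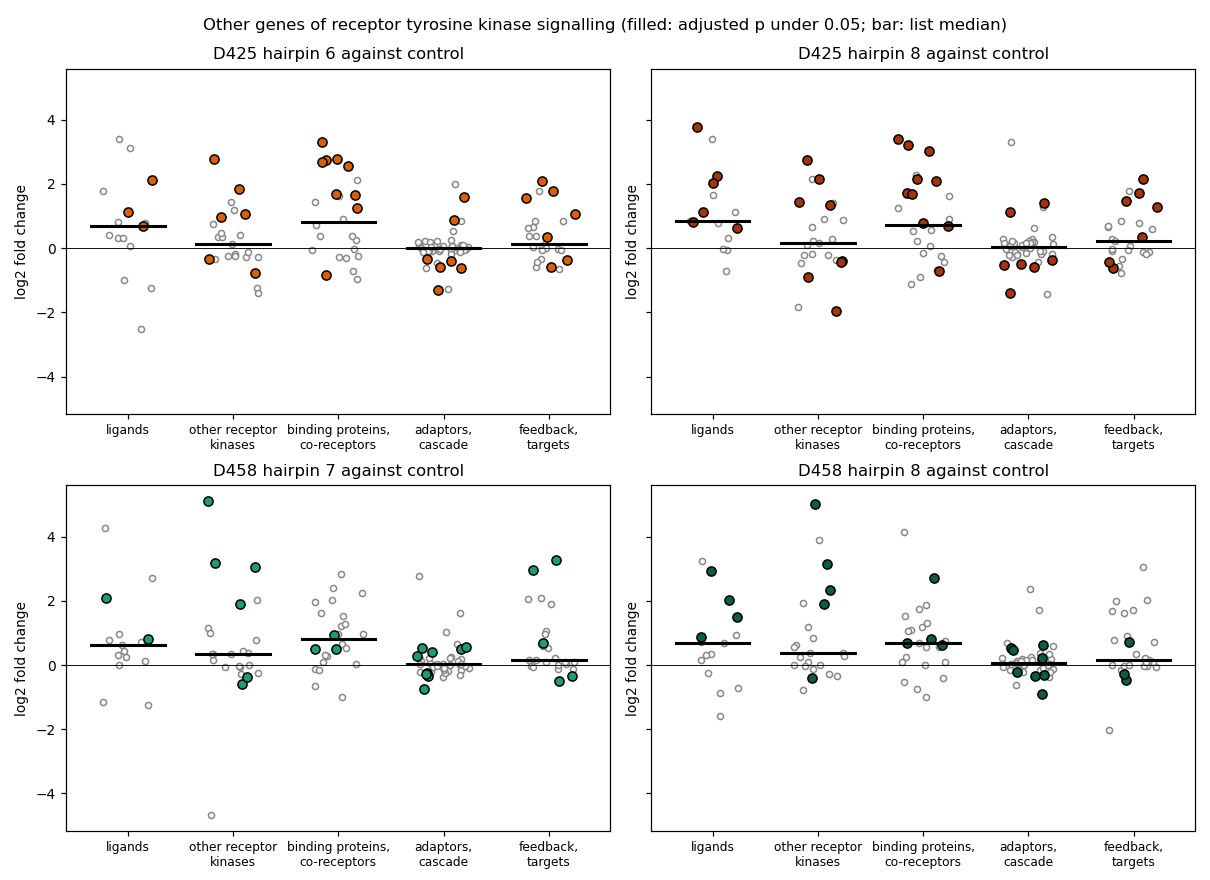
Log2 changes of the tested genes of 5 lists around the receptors (ligands, other receptor tyrosine kinases, binding proteins and co-receptors, adaptors and cascade, feedback and targets) with each hairpin over its line's control. Filled circles have an adjusted p under 0.05 and bars are list medians. Of 15 tested ligands none was called lower in any panel, where 6.84% to 11.1% of all tested genes were. The adaptor and cascade medians lay between 0.00 and 0.05.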

How the data were processed

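Poly(A) RNA of 18 samples was sequenced as stranded libraries, per the labels' protocols. The values deposited by the authors are whole-number read counts per gene symbol, with no scaling. The submitters' processing notes name, without order or versions, the tools HTSeq, TopHat2, Bowtie2, SAMtools, Picard, FastQC and bcl2fastq, and the builds hg19 and GRCh37. The strand setting of the counting is not given in the sources used here, so reads of overlapping genes could be shared.

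From the counts, genes were kept with filterByExpr (minimum count 10), leaving 14850 of 25369, and libraries were scaled by TMM. A quasi-likelihood model with 1 mean per group (12 residual degrees of freedom) was fitted with edgeR 4.0.16 in R 4.3.3 and tested on simulated data. Alternatives used RLE factors, library totals, DESeq2 1.42.0, limma 3.58.1 voom, other filters, each line alone, left-out libraries and a replicate block within line. Floors of 3 counts and count errors cover counting error only. Exon lengths are unions of protein-coding exons in GENCODE release v29. The order of genes along chromosomes came from a RefSeq list of genes.

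Same-numbered samples share a number in the labels' descriptions, and replicates 2 and 3 share a date that replicate 1 does not. After removal of group means, same-numbered samples correlated at 0.084 to 0.608 in D425 and 0.127 to 0.7 in D458 (means 0.296 and 0.347). Between different numbers the range was -0.405 to 0.197 in D425 and -0.604 to 0.343 in D458 (means -0.143 and -0.165), so the ranges overlapped. With group means of 3 replicates removed, a positive mean within numbers forces a negative mean between them, which is thus no separate support. The lowest D425 value would be too weak to pair those samples by itself, and the labels do not say what the number marks. The numbers were taken as pairing the samples of a line from the shared label number. The date sets replicate 1 apart but does not separate replicates 2 and 3, so their pairing rests on the number alone. Blocked values are given beside results on that footing. Named genes are the 10 receptors, EYA2, up to 4 called genes per list and comparison averaging at least 1 CPM, and the 2 genes closest to a receptor called at least 2 times. A few genes picked by these rules are not reported here. The receptors and lists were chosen with earlier results of these data known.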

Additional observations from a re-analysis of the deposited data

Results flagged for a closer look

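The change with hairpin 8 differed between the lines for 4 receptor genes, by the test of the difference itself (D458 minus D425, edgeR quasi-likelihood, adjusted over 14850 genes). The difference was 1.55 for PDGFRB and 1.21 for FGFR1, both higher in D458, and -0.85 for FGFR2 and -0.69 for IGF1R, both lower in D458. In the samples of replicates 2 and 3 alone, which share a date in the labels, it was 0.96 for PDGFRB (adjusted p = 0.22), 1.09 for FGFR1 (adjusted p = 0.013), -1.17 for FGFR2 (adjusted p = 0.00121) and -0.69 for IGF1R (adjusted p = 0.00373). Replicate 1 carries an earlier date in the labels, which differs between the lines, and its 1 library per group gives no test. With all replicates, hairpin 8 changed EYA2 by -1.79 in D458 and by -0.98 in D425.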

How the results depend on the processing

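Over all alternatives run, 1252 values of the 8 tested receptors and EYA2 were recomputed: 1088 kept direction and side of the threshold, 86 calls were lost, 41 gained, and 37 uncalled values changed sign, with 0 sign changes among called values. The number of receptors called with hairpin 6 in D425 was 1, against 6 with the replicate block, 3 in the 9 libraries of the line, 2 with DESeq2 and 2 with limma voom; with hairpin 8 in D458 it was 3, against 1 in the 9 libraries of the line. The block changed no receptor call other than those given with the results, and moved no other receptor count by over 1.5 times, but over all genes it called 4134 (hairpin 6) and 5521 (hairpin 8) in D425 and 5937 (hairpin 7) and 5888 (hairpin 8) in D458, against 2101, 3221, 3357 and 3442 without it. Among the list counts, the ligand count with hairpin 7 in D458 was 4 with DESeq2, against 2. The feedback count there was 3 in the 9 libraries of the line and 2 with limma voom, against 5, and with hairpin 8 in D458 1 without a filter, against 3, while the adaptor count with hairpin 8 in D458 was 5 in the 9 libraries, against 8. The feedback count was 0 with both D458 hairpins without replicate 2 of every group, and its lowest value without a single library was 0 with each.

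Without single libraries the counts ran from 1 to 2 (hairpin 6) and 2 to 4 (hairpin 8) in D425, 2 to 3 (hairpin 7) and 1 to 2 (hairpin 8) in D458, and 2 to 5 for the difference between lines; without a replicate number in every group, from 0 to 4, 1 to 5, 1 to 4, 1 to 2 and 0 to 4. The cause was not tested, and each of these fits also holds fewer samples. The counts for the hairpins against each other stayed at 0, and those for the control groups at 7 to 8, PDGFRA included.

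Uncalled values changed sign as follows. ERBB3 with hairpin 8 in D458 was 0.032 by library totals and 0.011 at a minimum count of 30. For hairpin 8 against hairpin 6 in D425, PDGFRA was 0.10 with limma voom, and by library totals FGFR2 was 0.013 and ERBB2 0.0018. For hairpin 8 against hairpin 7 in D458, PDGFRB was -0.010 with the replicate block and -0.029 with limma voom.

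Without single libraries, the values ran from -0.28 to 0.85 (PDGFRA, hairpin 6, D425), -0.12 to 0.75 (PDGFRA, hairpin 8, D425), -0.13 to 0.19 (ERBB2, hairpin 7, D458), -0.91 to 0.72 (ERBB3, hairpin 8, D458) and -1.46 to 0.18 (ERBB3, difference between lines). For hairpin 8 against hairpin 6 in D425 they ran from -0.49 to 0.59 for PDGFRA, -0.096 to 0.088 for FGFR2 and -0.48 to 0.30 for ERBB2, and for hairpin 8 against hairpin 7 in D458 from -0.46 to 0.29 for PDGFRB and -0.060 to 0.15 for IGF1R. Without replicate 3 of every group, PDGFRB with hairpin 6 in D425 was -0.11, PDGFRA with hairpin 8 in D425 -0.32, ERBB3 with hairpin 8 in D458 0.11, FGFR2 between D425 hairpins 0.11 and IGF1R between D458 hairpins -0.0018. Without replicate 1, ERBB2 with hairpin 7 in D458 was -0.15, ERBB2 between D425 hairpins 0.0047 and PDGFRB between D458 hairpins -0.19. Without replicate 2, PDGFRA and ERBB2 between D425 hairpins were 0.50 and 0.0057.

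Depth limits PDGFRA, ERBB4 and NTRK3, for which at most 16 counts stood in any library.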
